A study of Mus musculus with 15 samples.

Results

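The mitochondrially encoded transcripts were taken as every row of the deposited gene table whose symbol starts with mt-, which gave 37 of 47729 features. They are 2 ribosomal RNAs (mt-Rnr1 and mt-Rnr2), 22 transfer RNAs and 13 protein-coding genes. The cells were macrophages sorted from the aorta (F4/80+ CD64+) of female Apoe-/- mice, a strain that develops atherosclerosis, after a high fat Western diet for 4 weeks. Genotype, sex and diet were shared by both groups, which differ in the sort label: Olfr2+ or Olfr2-, for the odorant receptor Olfr2. The sorts were technical replicates of 100 to 200 cells from the pooled aortas of 4 mice, and Smart-Seq2 amplified their cDNA for 18 PCR cycles before a tagmented library was made with 9 more. The titles number 3 samples per group (1, 3 and 4 for Olfr2-, 2, 3 and 4 for Olfr2+) and give each 1 to 4 lettered columns, 15 in all. P-values therefore measure only the spread between numbered samples. That spread is technical if the numbered samples are those sorts, and n = 3 does not count single mice. In bulk RNA, fewer cells of a type and less RNA per cell cannot be told apart.

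Mitochondrial DNA is a small circle that is transcribed from both strands into long precursors. Transfer RNAs lie between most of the other genes, and enzymes that cut at their ends release the ribosomal and messenger RNAs, a scheme known as tRNA punctuation. The messenger RNAs encode subunits of respiratory complexes I, III and IV and of ATP synthase, while the ribosomal and transfer RNAs serve the translation of those subunits inside the organelle. All other proteins of the organelle come from nuclear genes. In macrophages, respiration is one of the programmes known to differ between activation states.

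The numbered samples held 30.5, 85.0 and 73.9 M counts (M, 1000000 counts) for Olfr2- 1, 3 and 4, and 363.9, 272.6 and 67.5 M for Olfr2+ 2, 3 and 4. Of the columns, 7 had over 60 M counts, and all 7 carried the Olfr2+ label (2A to 2D and 3A to 3C). The other 8 were the 5 Olfr2- columns and Olfr2+ 3D, 4A and 4B. The Olfr2 transcript itself went against the labels, with 76, 34 and 35 counts in the samples labelled Olfr2- and 1, 9 and 8 in those labelled Olfr2+. The 12 macrophage markers were detected in every column, and their sum was higher in the deeper Olfr2+ columns (7847 to 15775 CPM, counts per 1000000 of the column total) than in Olfr2+ 3D, 4A and 4B (2824 to 4475 CPM), with 1837 to 8708 CPM in Olfr2-. The deeper Olfr2+ columns also differed in markers of other cells: the 10 fibroblast markers summed to between 48030 and 63855 CPM there. Their sum was 3574 to 6189 CPM in Olfr2+ 3D, 4A and 4B, and 2944 to 4905 CPM in the Olfr2- columns. The 9 B cell markers summed to between 222 and 5592, 35303 and 54942, and 22988 and 41551 CPM in the same order of sets, and Cd79a and Pax5 were each at 0 in 1 column. The 8 smooth muscle markers summed to between 74.8 and 208, 3.06 and 6.50, and 4.13 and 21.5 CPM in that order, with Tagln, Cnn1 and Des at 0 in some columns. Among the B cell markers, Igkc (19216.5 CPM) and Ighm (2372 CPM) had the highest medians over columns, and each other marker had 51.5 CPM or less. Of the latter, Cd79b and Ebf1 averaged more in Olfr2+ samples (21.6 and 87.4 CPM) than in Olfr2- samples (8.52 and 46.6 CPM). The B cell sum thus does not stand for all 9 markers. The part of cell type in the results on mitochondrial RNA was not tested.

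Mitochondrial RNA made up 10.1, 7.46 and 9.89% of all counts in Olfr2- samples 1, 3 and 4, and 4.10, 5.08 and 8.25% in Olfr2+ samples 2, 3 and 4. Olfr2+ 4, which has no column over 60 M counts, lay inside the Olfr2- range, and Olfr2+ 2 and 3 lay below it. By column, the share ran from 7.26 to 10.3% in Olfr2-, from 7.51 to 12.2% in the Olfr2+ columns below 60 M counts, and from 2.53 to 5.43% in those above. The low shares thus went with the deeper columns, within 1 label.

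The ribosomal RNAs, which form the cores of the small (mt-Rnr1) and large (mt-Rnr2) subunits of the mitochondrial ribosome, held most of these counts outside the deeper columns. Their sum was 95673, 61044 and 87430 CPM in Olfr2- samples 1, 3 and 4, and 20050, 29219 and 73695 CPM in Olfr2+ samples 2, 3 and 4. The messenger RNAs moved the other way, at 5100, 13365 and 11023 CPM in Olfr2- and 20888, 21536 and 8555 CPM in Olfr2+. Both orders put Olfr2+ 4 with the Olfr2- samples. The ratio of ribosomal to messenger RNA was accordingly 18.8, 4.57 and 7.93 in Olfr2-, and 0.960, 1.36 and 8.61 in Olfr2+. This ratio is taken within the mitochondrial counts, so it does not depend on how a library is scaled. It does depend on which reads were counted for each gene. A set of 6 messenger RNAs with uncertain levels, described below, held only 0.0240 to 0.899% of messenger RNA counts by column. The transfer RNAs summed to 272, 157 and 402 CPM in Olfr2- and to 21.9, 50.6 and 204 CPM in Olfr2+.

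**Figure D1:**
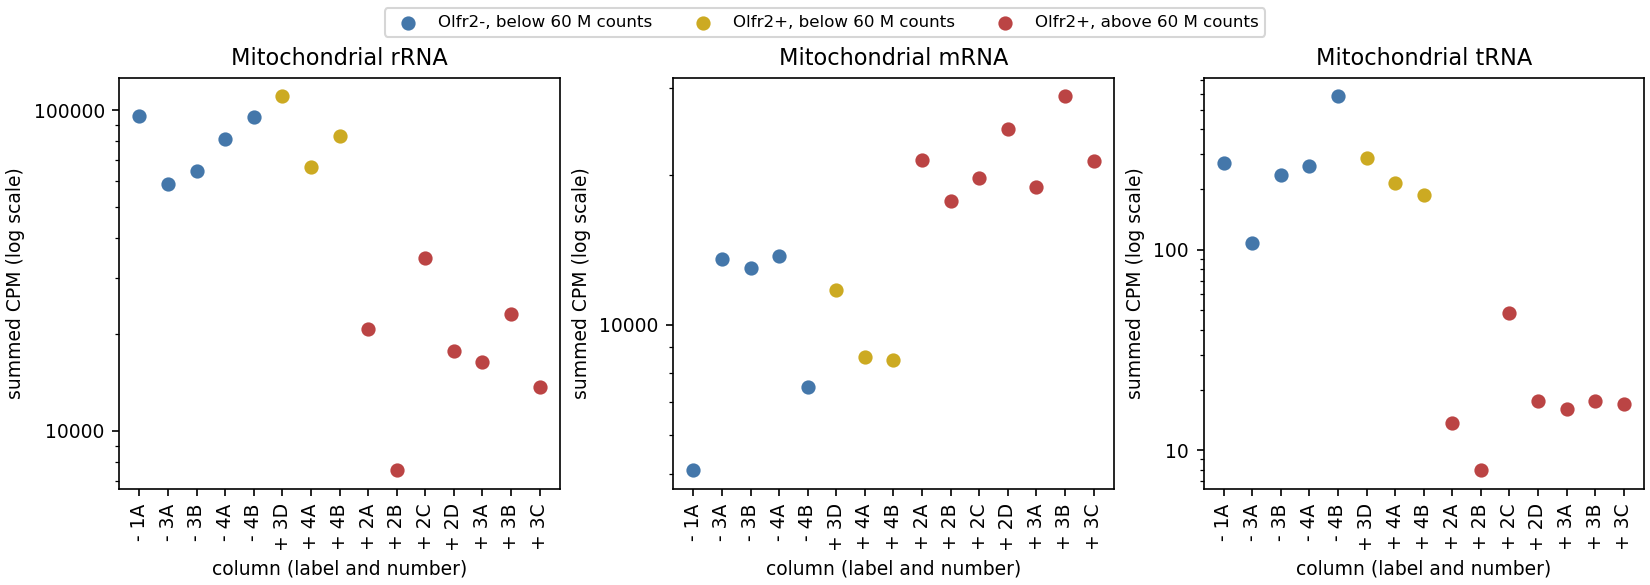
Summed CPM (log scale) of mitochondrial rRNA, mRNA and tRNA in each of the 15 columns, with points coloured by label and by depth above or below 60 M counts (M, 1000000). The 7 deeper Olfr2+ columns lie below the other 8 in rRNA and tRNA and above them in mRNA, while the 3 remaining Olfr2+ columns lie in or near the range of Olfr2-.

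Of the ribosomal RNAs, mt-Rnr2 was the more abundant in every column, also per kilobase. It stood at 81415, 51949 and 73854 CPM in Olfr2- samples 1, 3 and 4, and at 17419, 24791 and 61584 CPM in Olfr2+ samples 2, 3 and 4. The level of mt-Rnr1 was 14258, 9095 and 13576 CPM in Olfr2- and 2631, 4427 and 12111 CPM in Olfr2+. For both genes the groups overlapped, through Olfr2+ 4. The ratio of mt-Rnr2 to mt-Rnr1 counts lay between 4.26 and 10.6 in Olfr2-, between 4.75 and 5.46 in the Olfr2+ columns below 60 M counts and between 4.64 and 7.92 in those above, so the sets overlapped in it.

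Complex I takes 7 subunits from mitochondrial DNA. The first messenger RNA genes after the ribosomal RNAs are mt-Nd1, which had 461, 2517 and 931 CPM in Olfr2- 1, 3 and 4 and 2159, 1933 and 1335 CPM in Olfr2+ 2, 3 and 4, and mt-Nd2, which had 1513, 1891 and 1579 CPM against 1181, 1314 and 2183 CPM. The values of mt-Nd4 were 841, 1400 and 584 CPM in Olfr2- and 1576, 1490 and 919 CPM in Olfr2+, and those of mt-Nd5 were 719, 486 and 770 CPM against 923, 1072 and 694 CPM. The groups overlapped in each of these 4 genes. The subunit gene mt-Nd6 is the one messenger RNA encoded on the other strand from the rest. Its level was 308, 1128 and 1546 CPM in Olfr2- and 273, 439 and 812 CPM in Olfr2+, again with overlap. As a share of mitochondrial mRNA counts, mt-Nd6 held 6.03 to 32.8% in Olfr2- columns, 8.63 to 10.6% in Olfr2+ columns below 60 M counts and 0.808 to 1.71% in those above.

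Complex III takes cytochrome b (mt-Cytb) from mitochondrial DNA, and complex IV takes its catalytic subunit (mt-Co1). The level of mt-Cytb was 625, 4856 and 2455 CPM in Olfr2- samples 1, 3 and 4 and 9004, 9528 and 1477 CPM in Olfr2+ samples 2, 3 and 4. That of mt-Co1 was 588, 1053 and 3125 CPM against 5764, 5744 and 1087 CPM. In both genes Olfr2+ 2 and 3 stood above every Olfr2- sample and Olfr2+ 4 stood among them. Together they held 65.6 to 77.8% of mitochondrial mRNA counts in the deeper Olfr2+ columns, 28.5 to 31.1% in Olfr2+ 3D, 4A and 4B, and 23.8 to 73.7% in Olfr2-.

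The Olfr2- columns differed widely among themselves in these messenger RNAs, also between the 2 columns of 1 numbered sample. In Olfr2- 3B, mt-Cytb alone held 68.1% of mitochondrial mRNA counts, the highest share of any gene in any column. In Olfr2- 4A, mt-Co1 held 37.4%, whereas in Olfr2- 4B mt-Nd6 held 32.8%. In Olfr2- 3A the leading gene was mt-Nd1, with 27.5%. The 3 Olfr2+ columns below 60 M counts had like shares, led by mt-Nd2 with 24.6 to 30.6%. In the 7 deeper columns mt-Cytb led throughout, with 36.7 to 53.2%.

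**Figure D2:**
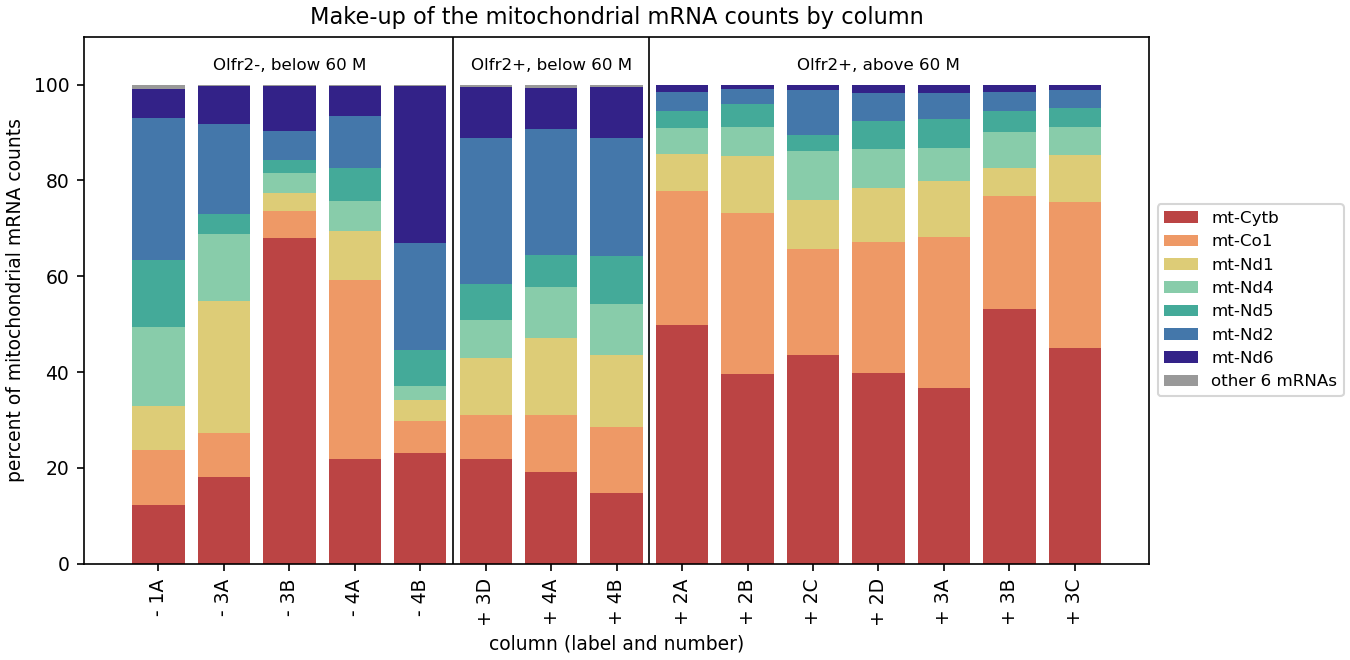
Percent of mitochondrial mRNA counts held by each of the 7 abundant genes and by the other 6 together, in each column, with lines between the Olfr2- columns, the Olfr2+ columns below 60 M counts and those above. The share of mt-Nd6 stays at or below 1.71% in the deeper Olfr2+ columns and is 6.03% or more elsewhere, and the 5 Olfr2- columns differ in which gene leads.

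A run of 6 messenger RNAs that lie next to each other on the mitochondrial map, apart from transfer RNAs between them, was nearly empty in every column. These genes are mt-Co2 and mt-Co3 (complex IV), mt-Atp8 and mt-Atp6 (ATP synthase), and mt-Nd3 and mt-Nd4l (complex I), and they were singled out after their values were seen. Their summed level was 21.8 to 45.9 CPM in Olfr2- columns, 41.4 to 57.0 CPM in Olfr2+ columns below 60 M counts and 4.26 to 13.9 CPM in those above. Per kilobase of transcript, none of the 6 exceeded 30.5 CPM in any column, and none of the other 7 messenger RNAs was below 163.6 CPM in any. Within a column, the lowest of the 7 was at least 9.02 times the highest of the 6 per kilobase, and the median of the 7 over that of the 6 had a median ratio of 268 over columns.

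The gap in level went with the presence of near-identical nuclear copies, which are stretches of mitochondrial DNA inserted into the nuclear genome. Transcripts of GENCODE M21 (build GRCm38) hold annotated pseudogenes that match 5 of the 6 over nearly their whole length. These are Gm28661 for mt-Co2 (100% identity over 681 of 684 bases), Gm10925 for mt-Atp6 (100% over 678 of 681), Gm28437 for mt-Co3 (100% over 783 of 784), Gm28438 for mt-Nd3 (99.71% over 345 of 348) and Gm10222 for mt-Nd4l (100% over 294 of 297). For mt-Atp8 no annotated copy met the search limits (at least 90% identity over at least 100 bases), and mt-Atp8 shares 43 bases with mt-Atp6. The copies lie side by side on chromosome 1, in the order of the mitochondrial map, between partial copies of mt-Co1 (Gm29216) and mt-Nd4 (Gm28439), and no other annotated gene lies among the 7. To show how little distinguishes a member from its copy, the first 63 bases of mt-Nd3 and of Gm28438, from GENCODE M21 transcripts, are printed with their difference in capitals.
mt-Nd3: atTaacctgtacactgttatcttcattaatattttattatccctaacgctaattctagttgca
Gm28438: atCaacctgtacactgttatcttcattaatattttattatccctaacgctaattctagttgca
The mismatch is T3C, counted from the first base of mt-Nd3, and it is the 1 mismatch in the 345 aligned bases. A short read from most of this gene therefore matches both places equally. How reads with several matches were counted is not given in the sources used here, so the levels of these 6 genes are uncertain, and the part of such reads in them was not tested.

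The abundant messenger RNAs also had annotated copies, but shorter or less alike ones. Gm28439 matched 876 of the 1378 bases of mt-Nd4 at 100%, and Gm29216 matched 483 of the 1545 bases of mt-Co1 at 99.8%, while Gm13340 matched all of mt-Co1 at 97.6%. Short reads from the stretches shared with Gm28439 and Gm29216 match both places alike or nearly so. The counts of mt-Nd4 and mt-Co1 are therefore uncertain in that part, which was not tested. The copies found for mt-Nd2, mt-Nd5, mt-Nd6 and mt-Cytb were 96.7% identical or less. None was found for mt-Nd1 or for either ribosomal RNA, and transfer RNAs are too short for the search. Gm28437 held between 651 and 1396 counts in Olfr2- columns, 777 and 1472 in Olfr2+ columns below 60 M counts and 356 and 1131 in those above, more than mt-Co3 in all 15 columns (207 to 597, 309 to 571 and 150 to 560 counts). Gm28661 held more than mt-Co2 in 9 of 15 columns, Gm28438 more than mt-Nd3 in 6, and Gm10925 and Gm10222 more than mt-Atp6 and mt-Nd4l in 4 each.

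**Figure D3:**
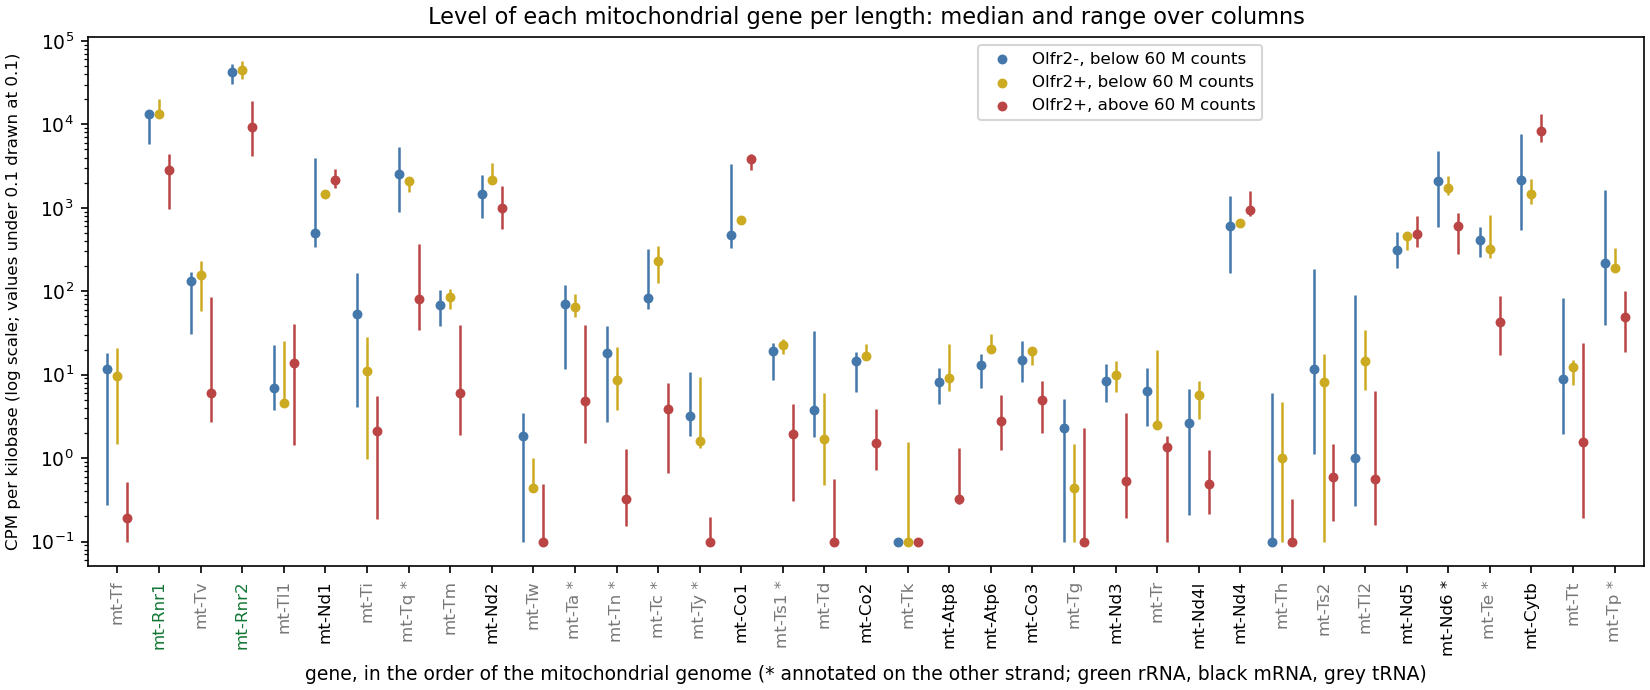
CPM per kilobase (log scale, with values under 0.1 drawn at 0.1) of the 37 genes in the order of the mitochondrial map, as median and range over the 5 Olfr2- columns, the 3 Olfr2+ columns below 60 M counts and the 7 above. The 6 messenger RNAs from mt-Co2 to mt-Nd4l stay at or below 30.5, and mt-Tq has the highest median of the transfer RNAs in each set.

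The transfer RNAs, each of which carries an amino acid to the mitochondrial ribosome, took under 1% of mitochondrial counts in any column, from 0.0315 to 0.564%. Counts were unequal among them. The glutamine transfer RNA mt-Tq averaged 95.1 CPM over the columns, followed by mt-Te (glutamate) with 17.7, mt-Tp (proline) with 14.8, mt-Tc (cysteine) with 6.55, mt-Tv (valine) with 5.0 and mt-Tm (methionine) with 3.20 CPM. The lysine transfer RNA mt-Tk had 3 counts in Olfr2+ 4B and 0 in the other 14 columns, where a count of 0 allows up to 3 counts, or between 0.0314 and 0.0984 CPM by column depth. The sequences of these 7 genes, from GENCODE M21 (GRCm38), are shown to let the abundant ones be compared with mt-Tk, with the anticodon in capitals.
mt-Tq: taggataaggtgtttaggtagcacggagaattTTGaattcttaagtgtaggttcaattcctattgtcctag
mt-Te: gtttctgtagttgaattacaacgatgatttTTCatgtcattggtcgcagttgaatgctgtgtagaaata
mt-Tp: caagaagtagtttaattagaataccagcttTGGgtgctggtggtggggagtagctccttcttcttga
mt-Tc: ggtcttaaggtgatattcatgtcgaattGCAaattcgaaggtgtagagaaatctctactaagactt
mt-Tv: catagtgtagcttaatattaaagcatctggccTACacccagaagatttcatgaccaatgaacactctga
mt-Tm: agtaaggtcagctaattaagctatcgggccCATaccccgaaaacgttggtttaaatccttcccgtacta
mt-Tk: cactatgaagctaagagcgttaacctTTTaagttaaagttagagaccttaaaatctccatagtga
The 7 span 65 to 71 bases.

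The 4 leading transfer RNAs, mt-Tq, mt-Te, mt-Tp and mt-Tc, are encoded on the strand opposite to most other genes, and precursors of the opposite sense run across them. The 8 transfer RNAs on that strand held 88.1 to 93.3% of transfer RNA counts in Olfr2- columns, 88.4 to 93.7% in Olfr2+ columns below 60 M counts and 76.9 to 89.4% in those above, while the other 14 shared the rest. Of all transfer RNA counts, mt-Tq alone held 57.8 to 74.4%, 54.6 to 68.5% and 27.1 to 53.9% in the same order of sets. Smart-Seq2 does not mark the strand, so a transfer RNA, its precursor and RNA of the opposite sense cannot be told apart in these counts, and the same holds for mt-Nd6. The other 16 transfer RNAs averaged between 0.00669 and 2.74 CPM, 7 of them had counts in every column, and 9 were at 0 in 1 or more.

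By numbered sample, mt-Tq stood at 180, 91.4 and 274 CPM in Olfr2- 1, 3 and 4 and at 10.1, 24.6 and 131 CPM in Olfr2+ 2, 3 and 4. The level of mt-Te was 40.7, 26.9 and 26.1 CPM in Olfr2- and 3.53, 9.07 and 19.6 CPM in Olfr2+. The groups overlapped in mt-Tq and did not overlap in mt-Te. Of the 18 transfer RNAs that passed the filter on low counts, 2 (mt-Te and mt-Ti, 11.1%) had every Olfr2+ sample below every Olfr2- sample, as did 29.8% of all 24362 genes tested. The same held for mt-Tw and mt-Tg, which did not pass that filter and had 26 and 45 counts in total. No ribosomal or messenger RNA separated in that direction, and 0 of the 37 members separated upwards, whereas 6.21% of genes tested did.

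The sort labels were compared over all columns with edgeR's quasi-likelihood test on counts summed per numbered sample, adjusted over all genes tested (Benjamini-Hochberg). Of 33 members tested, 0 passed an adjusted p under 0.05 in either direction, against a background of 1.12% of genes called higher and 0.46% called lower in Olfr2+. The balance of that background turned with the scaling, from 273 genes higher and 112 lower by TMM to 86 higher and 310 lower with library totals, and 0 members passed with either. An unadjusted p under 0.05 was found for 5 of the 33 members (mt-Nd1, mt-Nd4, mt-Nd5, mt-Co1 and mt-Cytb) and for 7821 of 24362 genes (32.1%). The members were thus not richer in such values than all genes. The log2 fold change of Olfr2+ over Olfr2- was 2.73 for mt-Co1 (SE 0.75, adjusted p = 0.0574 by edgeR) and 2.58 for mt-Cytb (SE 0.75, adjusted p = 0.0634). It was 1.73 for mt-Nd4 (SE 0.73, adjusted p = 0.119), 1.69 for mt-Nd5 (SE 0.75, adjusted p = 0.130) and 1.65 for mt-Nd1 (SE 0.74, adjusted p = 0.133). These 5 were positive with TMM factors and with library totals alike, although the 3 samples of each group overlapped in CPM for all of them.

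For both ribosomal RNAs and for mt-Nd2 and mt-Nd6 the sign changed with the scaling, while mt-Tq, mt-Te and mt-Tp were negative by TMM and by totals. The middle value over all genes tested was a log2 fold change of 0.24 by TMM scaling and -0.88 by scaling to library totals, a shift of 1.12. The value was 0.05 for mt-Rnr2 (SE 0.39, adjusted p = 0.928 by edgeR), 0.07 for mt-Rnr1 (SE 0.53, adjusted p = 0.926) and 0.05 for mt-Nd6 (SE 0.80, adjusted p = 0.968), but -1.001, -0.95 and -0.97 with library totals. Relative to the median of all genes, mt-Rnr2 stood at -0.19 by TMM and -0.13 by totals, and mt-Rnr1 at -0.17 and -0.07. On the same relative scale, 9 of 13 messenger RNAs were above the median of all genes by TMM and 10 by totals, with class medians of 0.45 and 0.66. Of 18 transfer RNAs tested, 17 were below it by TMM and 16 by totals, with class medians of -0.57 and -0.40. The most negative was mt-Ti, the isoleucine transfer RNA, at -3.06 (SE 1.54, adjusted p = 0.164 by edgeR), with 11.5, 4.46 and 2.23 CPM in Olfr2- and 0.15, 0.41 and 0.46 CPM in Olfr2+. The transfer RNAs mt-Tw, mt-Tk, mt-Tg and mt-Th fell below the filter on low counts and were not tested.

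Other settings moved a few members across the threshold or away from it. DESeq2 called mt-Co1 (2.93) and mt-Ti (-2.89), against 23.3% of genes called in either direction. Without the filter on low counts, mt-Co1 and mt-Cytb passed in edgeR, against 2.06% of genes. The same 2 passed with the 8 library names as units, against 6.02%. That setting splits Olfr2+ 2 and Olfr2+ 3 into 2 units each, so libraries of 1 numbered sample count as replicates there. Leaving out Olfr2- 4 or Olfr2+ 4 brought mt-Co1 alone past the threshold, at 3.51 and 3.16, against 0.445% and 3.63% of genes. Smaller values of mt-Co1 and mt-Cytb came from other settings: 1.40 and 1.33 with library totals (adjusted p = 0.165 and 0.169 by edgeR), and 1.03 and 1.01 where genes had to average 10 CPM or more (adjusted p = 0.512 and 0.522). With depth as a covariate they were 0.16 and 0.20 (adjusted p = 0.941 and 0.934), and with the sample number as a block 1.32 and 0.98 (adjusted p = 0.719 for both). The fit with depth enters Olfr2+ 3 as 2 units, its columns above and below 60 M counts, which are not separate samples.

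**Figure D4:**
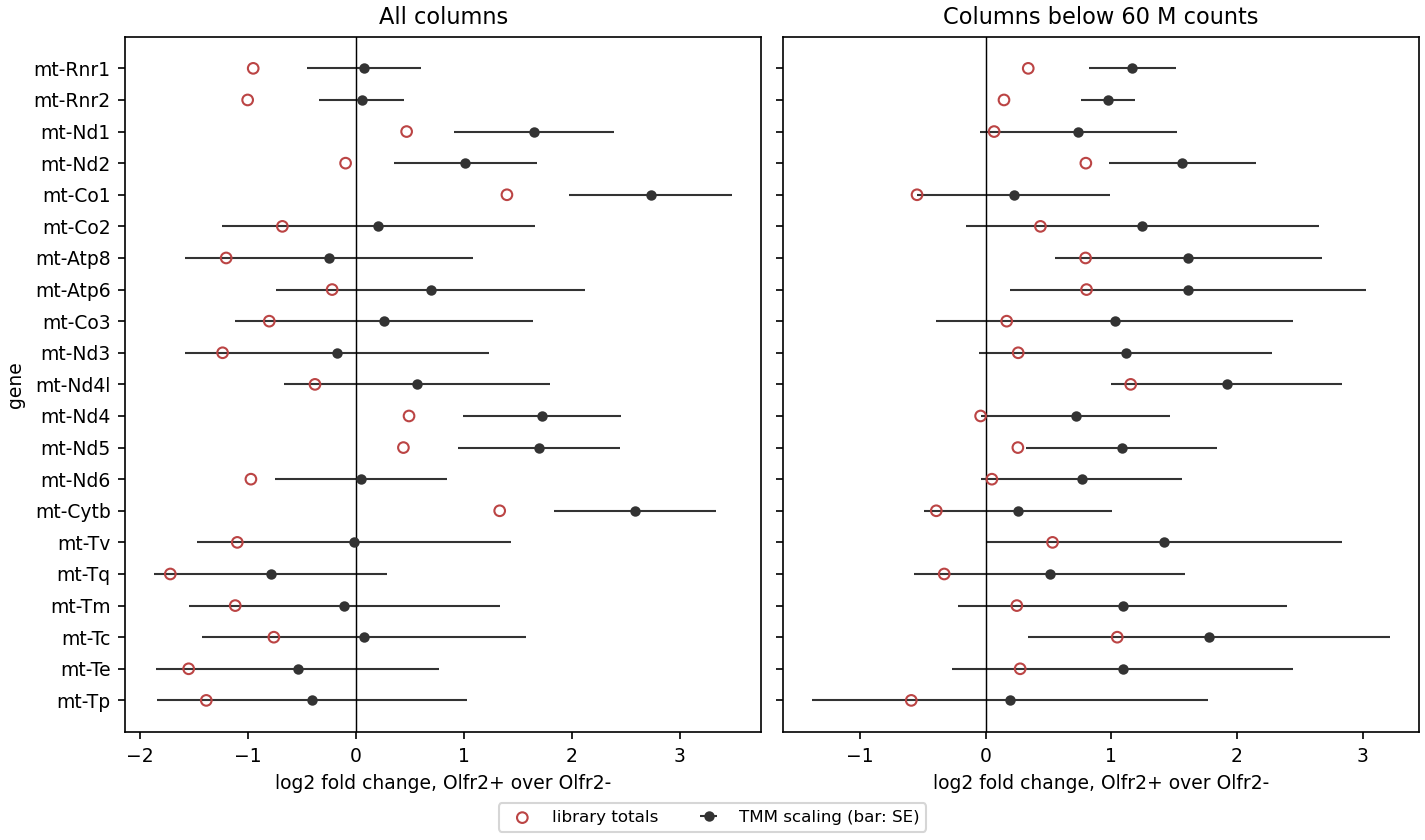
Log2 fold change of Olfr2+ over Olfr2- by edgeR with TMM scaling (filled points, bars are the SE) and with library totals (open circles) for both rRNAs, the 13 mRNAs and the 6 most abundant tRNAs, over all columns (left) and over the columns below 60 M counts (right). Over all columns mt-Co1 (2.73) and mt-Cytb (2.58) stand highest, and over the columns below 60 M counts they stand at 0.22 and 0.26 (-0.55 and -0.39 with library totals); in neither comparison did a member pass an adjusted p under 0.05.

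Restricting the comparison to the columns below 60 M counts left 3 Olfr2- samples against Olfr2+ 3 and 4. Here mt-Co1 stood at 0.22 (SE 0.77, adjusted p = 0.931 by edgeR) and mt-Cytb at 0.26 (SE 0.75, adjusted p = 0.917), and both were negative with library totals (-0.55 and -0.39). Of 35 members tested, 0 passed, and edgeR called 0.0% of 29989 genes in either direction. At an unadjusted p under 0.05 in edgeR there were 3 of 35 members and 3127 of 29989 genes (10.4%). DESeq2 called 1250 genes and 0 members, and the share of genes that this makes was not worked out. The 3 members were mt-Rnr2 (0.98, SE 0.21, adjusted p = 0.411 by edgeR), mt-Rnr1 (1.17, SE 0.35, adjusted p = 0.411) and mt-Nd2 (1.57, SE 0.58, adjusted p = 0.434). They were positive by totals as well, at 0.15, 0.34 and 0.80. With the sample number as a term of the fit, mt-Rnr1 (1.13) and mt-Rnr2 (0.95) passed, against 0.0333% of genes, although the numbers did not pair the samples. That fit has almost as many terms as samples, so little is left to estimate the spread of each gene.

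In this comparison the median of all genes was -0.43 by TMM and -1.26 by totals. All 13 messenger RNAs and both ribosomal RNAs stood above that median under each scaling, as did 16 of 20 transfer RNAs tested. This was not particular to mitochondrial RNA. By TMM the class medians were 1.07 for ribosomal and 1.08 for messenger RNAs. Nuclear respiratory chain genes had a median of 1.06, mitochondrial ribosomal protein genes 0.91 and macrophage markers 1.00. Other lists lay below the median of all genes, among them mitochondrial translation factors (-0.91) and smooth muscle markers (-0.84). In CPM the sets overlapped for 36 of 37 members. The exception was mt-Atp6, at 4.74 to 12.2 CPM in the 5 Olfr2- columns and 13.6 to 20.8 CPM in the 3 Olfr2+ columns, against 0.874% of genes that separated upwards and 4.39% that separated downwards. It is one of the 6 genes whose counts are uncertain for their nuclear copies. The sum of 8 adipocyte markers also separated the labels in these columns, at 8.65 to 167 CPM in Olfr2- and 180 to 421 CPM in Olfr2+. That sum was mainly Fabp4, which reached 419 CPM while the other 7 markers reached at most 14.98 CPM in any column. The list's median log2 fold change was -0.89 by TMM, opposite in sign to its sum, and its part in the result was not tested.

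Within the Olfr2+ label, the columns above and below 60 M counts differed in most members. Those above were lower, with no overlap, in both ribosomal RNAs, 12 of 22 transfer RNAs and 8 of 13 messenger RNAs, a separation found in 18.9% of all genes tested. They were higher, with no overlap, in 4 messenger RNAs (mt-Nd1, mt-Co1, mt-Nd4 and mt-Cytb), as were 2.85% of genes. The remaining messenger RNA, mt-Nd5, overlapped. The lower messenger RNAs were mt-Nd2, mt-Nd6 and the 6 genes of the nearly empty run. The level of mt-Cytb was 6967 to 15333 CPM above and 1255 to 2555 below, that of mt-Nd6 was 143 to 445 CPM above and 742 to 1246 below, and that of mt-Tq was 2.47 to 26.1 CPM above and 110 to 158 below. No test was made, because numbered sample 3 lies on both sides.

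Olfr2+ 3C and 3D carry the same library name and lie on either side of the depth gap. Mitochondrial RNA was 3.51% of counts in 3C and 12.2% in 3D. The ratio of ribosomal to messenger RNA was 0.640 in 3C and 9.41 in 3D, and that of mt-Cytb to mt-Nd6 was 45.7 and 2.05. The ribosomal RNAs summed to 13697 and 110439 CPM and the transfer RNAs to 17.1 and 289 CPM. Each value of 3D was thus nearer to those of Olfr2+ 4A and 4B than to that of 3C. The fibroblast marker sum was 63855 CPM in 3C and 3574 CPM in 3D, and the B cell marker sum 924 and 35303 CPM. A nuclear gene model that holds ribosomal RNA sequence, Gm26917, led a list of 8 nuclear ribosomal and 7S RNA models whose sum was 49.8 to 167 CPM in the deeper columns, 2099 to 14400 CPM in Olfr2+ 3D, 4A and 4B, and 1505 to 3864 CPM in Olfr2-. Of the 8, Gm42418 and AY036118 were at 0 throughout. The part of depth, cell type and RNA type in the mitochondrial make-up was not tested, and label and depth cannot be told apart over all columns.

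The nuclear genes that serve this RNA were counted by role in the comparison over all columns. Over all genes tested, 32.1% had an unadjusted p under 0.05, and the shares called are those given above. Protein-coding genes held 94.6 to 97.5% of counts in the deeper Olfr2+ columns and 78.5 to 85.6% in the other columns. The median over all genes tested takes in features of every type, and the part of this in the list medians was not tested. Among 18 tested genes of mitochondrial transcription and the nucleoid, 0 were called by edgeR and 2 had an unadjusted p under 0.05, with a median of 1.01 on the log2 scale beside 0.24 for all genes tested, but -0.16 beside -0.88 with library totals. Of 21 genes of mitochondrial RNA processing and decay, 1 was called higher, 0 lower, and 5 had an unadjusted p under 0.05 (23.8%), with a median of 2.10 (0.78 with library totals). The called gene was Hsd17b10, a subunit of mitochondrial RNase P, which cuts the 5′ ends of transfer RNAs from the precursor. It stood at 2.94 ± 1.94 CPM in Olfr2- and 61.5 ± 59.4 CPM in Olfr2+ (mean ± SD, n = 3 each), a log2 fold change of 5.77 (SE 1.52, adjusted p = 0.0495 by edgeR). Elac2, which cuts the 3′ ends, was at 2.10 (SE 1.42, adjusted p = 0.274).

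In translation, 0 of 12 factors and 0 of 17 mitochondrial aminoacyl-tRNA synthetases were called, with 3 and 5 at an unadjusted p under 0.05 in edgeR (25.0 and 29.4%) and medians of 1.76 and 1.17 (0.57 and 0.23 with library totals). Among 76 mitochondrial ribosomal protein genes tested, 1 was called higher, 0 lower, and 36 had an unadjusted p under 0.05 (47.4%), with a median of 2.68 (1.48 with library totals). A single call among 76 is near the share of all genes called. The called gene was Mrps15, a protein of the small subunit, with 5.76 ± 2.41 CPM in Olfr2- and 73.7 ± 53.2 CPM in Olfr2+ (mean ± SD, n = 3 each), a log2 fold change of 5.04 (SE 1.33, adjusted p = 0.0494 by edgeR). Both calls were near the threshold: scaled to library totals, Hsd17b10 and Mrps15 had an adjusted p of 0.0673 and 0.0780 by edgeR, and with depth as a covariate 0.475 and 0.421. That depth fit takes the label from the columns below 60 M counts only. With 1 sample left out in turn, their adjusted p ran from 0.0390 to 0.172 and from 0.0462 to 0.181, and each passed without Olfr2+ 4 and missed without any of the other 5 samples. Of 78 nuclear genes of the respiratory chain and ATP synthase, 0 were called and 28 had an unadjusted p under 0.05 (35.9%), with a median of 2.09 (0.85 with library totals). Atp5b, the catalytic subunit of ATP synthase, was at 2.50 (SE 0.90, adjusted p = 0.0897) and Cox4i1, a subunit of complex IV, at -0.15 (SE 0.87, adjusted p = 0.906). The 9 nuclear copies had 0 calls and 0 at an unadjusted p under 0.05 in edgeR, with a median of 0.40 that became -0.63 with library totals. By column, the ribosomal protein genes summed to 712 to 2404 CPM in Olfr2-, 1428 to 2300 CPM in the Olfr2+ columns below 60 M counts and 2207 to 3213 CPM in those above, whereas the mitochondrial ribosomal RNAs were lowest in the last of these. Over the columns below 60 M counts edgeR called 0 genes in each of these lists, and Hsd17b10 stood at 2.74 (SE 1.49, adjusted p = 0.518).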

How the data were processed

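The deposited values were whole-number counts per gene, not normalized, made by the authors; the tools listed in the submitters' processing notes are DRAGEN, DESeq2 1.34 and STAR 2.7.1, with the build GRCm39 and no roles. For the strand setting, the annotation release and reads with several matches, the method is not given in the sources used here. Per the labels' protocols, cDNA was size-selected on beads, and its effect on short genes was not tested. The members and lists were chosen with earlier results of these data known, as was the limit of 60 M counts.

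Counts of each numbered sample were summed (the letter was read as a repeat, which no label states). Column totals ran from 29.9 to 95.6 M. A chi-square comparison of counts gave at least 573 per degree of freedom over 105 pairs of columns, so none was taken for a repeated deposit. Genes were tested with edgeR 4.0.16 (R 4.3.3, quasi-likelihood, TMM, expression filter by group, Benjamini-Hochberg) over the whole table. A log2 fold change has an SE from its F statistic. Alternatives were DESeq2 1.42.0, RLE scaling, library totals, no filter on low counts, a mean of at least 10 CPM, depth as a covariate, library names as units, the sample number as a block, and each sample left out. Values are named for both rRNAs, all mRNAs, the 6 tRNAs of highest mean CPM and any member or list gene that passed. Lengths, gene order and copies come from GENCODE M21 (GRCm38) by gene ID, which matched all 37, with BLAST 2.17.0. Coordinates are not given because the builds differ. Counts of PCR-amplified reads without molecular identifiers are not independent molecules, so limits on a count of 0 cover counting error only. All rows of the table named a gene.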

Additional observations from a re-analysis of the deposited data

Results flagged for a closer look

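In 5 of 48 groups of columns examined, 1 column stood apart from the others of its label by a gap that is large for its group's range. How often chance gives such a gap is not known here, because the genes share columns and the Olfr2+ columns mix both depths. In Olfr2-, mt-Co1 was 5132 CPM in column 4A against 1248 CPM in the next column, mt-Cytb was 8852 CPM in 3B against 3007, and mt-Tp was 109.5 CPM in 4B against 19.3. In Olfr2+, mt-Te was 56.1 CPM in column 3D against 22.4 in the next, and mt-Atp8 was 4.73 CPM in 3D against 1.84. Olfr2+ 3D is one of the 3 Olfr2+ columns below 60 M counts. The cause was not tested.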

How the results depend on the processing

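Of the log2 fold changes of named members recomputed under the alternatives, 62 of 286 changed sign over all columns and 20 of 184 over the columns below 60 M counts. Causes were not tested. With edgeR over all columns, 385 genes and 0 members were called. These counts became 6711 and 2 with DESeq2, 881 and 2 without the filter on low counts, and 1568 and 2 with library names as units. A mean of at least 10 CPM gave 0 genes (1389 at an unadjusted p under 0.05 in edgeR), and depth as a covariate gave 0 genes (2610 at an unadjusted p under 0.05), with 0 members in both. Leaving out each numbered sample gave 6 to 1086 genes and 0 to 1 members, with the lowest count without Olfr2+ 2 and the highest without Olfr2+ 4, and each of the 6 samples moved the count of genes by over 1.5 times. With the sample number as a replicate block, edgeR called 2 genes and 0 members. Over the columns below 60 M counts, where edgeR called 0 genes, DESeq2 called 1250 and the replicate block 10, of which 2 were members (mt-Rnr1 and mt-Rnr2). Samples that share a number did not deviate together (correlations of 0.0231 for number 3 and -0.046 for number 4), so the block rests on a number alone. Where a sample left out leaves 1 sample in a group, that sample is assumed to vary like the other group.

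Changes of sign over all columns were these. With DESeq2, the value became 0.16 for mt-Tv and 0.049 for mt-Tm. With RLE scaling, the value became -0.0073 for mt-Rnr2 and -0.0072 for mt-Nd6. With library totals, the value became -0.95 for mt-Rnr1, -1.001 for mt-Rnr2, -0.094 for mt-Nd2, -0.76 for mt-Tc, -0.68 for mt-Co2, -0.22 for mt-Atp6, -0.80 for mt-Co3, -0.38 for mt-Nd4l and -0.97 for mt-Nd6. Without the filter on low counts, the value became -0.039 for mt-Rnr1, -0.045 for mt-Rnr2, -0.11 for mt-Tc and -0.071 for mt-Nd6. With a mean of at least 10 CPM, the value became -1.32 for mt-Rnr1, -1.39 for mt-Rnr2, -0.45 for mt-Nd2, -1.25 for mt-Co3, -0.025 for mt-Nd5 and -1.19 for mt-Nd6. With depth as a covariate, the value became 1.28 for mt-Tv, 0.41 for mt-Tq, 0.98 for mt-Tm, 1.49 for mt-Atp8, 0.99 for mt-Nd3, 0.96 for mt-Te and 0.14 for mt-Tp. With library names as units, the value became -0.24 for mt-Rnr1, -0.20 for mt-Rnr2, -0.49 for mt-Tc, -0.33 for mt-Co2 and -0.12 for mt-Nd6. With the sample number as a replicate block, the value became 0.58 for mt-Tv, 0.063 for mt-Tm, 0.32 for mt-Atp8, 0.039 for mt-Nd3 and -0.28 for mt-Nd6. With each numbered sample left out in turn, values ranged from -0.54 to 0.32 for mt-Tv, -1.23 to 0.69 for mt-Tc, -0.76 to 0.21 for mt-Nd3, -0.50 to 0.40 for mt-Nd6, -0.86 to 0.26 for mt-Tm, -1.14 to 1.68 for mt-Tp, -0.94 to 0.34 for mt-Atp8, -0.48 to 0.41 for mt-Rnr1, -0.37 to 0.31 for mt-Rnr2, -1.12 to 0.76 for mt-Co2, -0.43 to 1.19 for mt-Atp6, -0.074 to 0.57 for mt-Co3 and -0.17 to 1.01 for mt-Nd4l.

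Over the columns below 60 M counts the following changed sign. With library totals, the value became -0.33 for mt-Tq, -0.55 for mt-Co1, -0.040 for mt-Nd4, -0.39 for mt-Cytb and -0.59 for mt-Tp. With a mean of at least 10 CPM, the value became -0.014 for mt-Rnr2, -0.48 for mt-Tq, -0.58 for mt-Co1, -0.056 for mt-Co3, -0.16 for mt-Nd4, -0.32 for mt-Cytb and -0.61 for mt-Tp. With the sample number as a replicate block, the value became -0.062 for mt-Co1 and -0.15 for mt-Cytb. With each numbered sample left out in turn, values ranged from -0.21 to 1.10 for mt-Co1, -0.22 to 1.22 for mt-Cytb and -0.35 to 2.26 for mt-Tp. Low counts limit mt-Tw, mt-Tk, mt-Tg and mt-Th, which held 26, 3, 45 and 31 counts in total.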
